A study of Mus musculus with 6 samples.

Results

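The small RNA table of this study lists sequences that the authors' pipeline named with the prefix PC-5p- or PC-3p-, that is, as the 5′ or 3′ arm of a predicted hairpin with no miRBase name. All rows with such a name were taken and rows that agreed in name and sequence were added up, leaving 167 predicted sequences of 756 sequences in all. The rest were 515 sequences with a mature miRNA name of any species and 74 other sequences of named hairpins. Small RNA was sequenced in 6 libraries of cells labelled Mes23.5, a dopaminergic hybrid of mouse neuroblastoma and rat midbrain cells, although the growth protocol names BV2, a mouse microglial line. Every library came from cells given LPS, an endotoxin of bacteria, for 24 h. In the 3 libraries called SIX2_EV here the cells were treated with extracellular vesicles of microglia overexpressing SIX2, a homeobox transcription factor. In the 3 libraries called control_EV they were treated with vesicles of control microglia. How SIX2 was overexpressed and which microglia gave the vesicles is not stated in the labels, and no label ties a library to its own culture, so a p-value here reflects spread among libraries that may be technical.

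MicroRNAs are cut from RNA hairpins by Drosha and Dicer, and either arm of the hairpin can give a mature strand that an Argonaute protein loads. The bases near the 5′ end of that strand, the seed, pair with target messages. Prediction programs fold the genome around a read and propose a hairpin when the read sits on 1 arm of it, so a predicted name states a fold and a position, not a shown precursor or target.

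The sequences that carry the findings are printed first, 5′ to 3′ and as the table gives them (DNA letters), with the seed, bases 2 to 8, in capitals. They are the most abundant predicted sequence, those that equal part of an annotated transcript, a pair of neighbouring loci, the sequence listed in every SIX2_EV library and in no control_EV library, and the most abundant one that shares a stretch with a mouse-named mature miRNA. All 8 match their deposited mouse hairpin without mismatch.
PC-3p-1417_8222: cCCAGAAAaggtgttggtt
PC-3p-2250_5064: gTTCTTAGttggtggagc
PC-5p-31484_147: aGAAGGGGtgggtggggt
PC-5p-7527_1248: aCTCTCTCactctgcatggttacaca
PC-5p-32562_139: tGGGCGTTcgttgaaaatcaccctcg
PC-5p-109608_17: tTGCAAGCaacactctgtggc
PC-5p-77833_32: tTTGATGGctgttcctcctgttgc
PC-3p-36109_117: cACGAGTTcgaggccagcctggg
Their hairpins were placed, in a build that is not named in the sources used here, at chr9:3258831-3258926 (minus strand), chr8:66849050-66849164 (minus), chr17:40159193-40159314 (plus), chr17:24939744-24939812 (plus), chr17:24938758-24938826 (minus), chr12:111507356-111507445 (plus), chr12:91540324-91540384 (minus) and chr4:83247515-83247619 (plus), in the order printed.

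Deposited reads per library ranged from 179621 to 421279, and replicate 3 differed from the rest in both groups: sequences named mir-1285 took 7.94% and 7.48% of reads there and at most 0.447% elsewhere. Sequences with a mature miRNA name took between 25.5% and 37.8% of reads in SIX2_EV, but between 37.2% and 73.4% in control_EV. Neuronal marker miRNAs fixed as a list (4 of 5 listed) summed to between 636 and 3230 RPM (reads scaled to the deposited total of the library) in SIX2_EV, and to between 2721 and 4987 in control_EV, with miR-124-3p, the defining neuronal miRNA, not among the listed sequences and with miR-218-5p and miR-9-5p each above 0 in 1 library. The myeloid list (4 of 4 listed) summed to at most 36543 RPM in SIX2_EV and at least 40382 in control_EV, and the red blood cell list (3 of 3 listed) to at most 16582 and at least 23047. In RPM both of these sums were lower in every SIX2_EV library than in any control_EV library. That order depends on the scaling. With TMM, the scaling of the fold changes below, the third control_EV library lies below every SIX2_EV library in both sums. Single members of the 2 lists differed: in RPM miR-146a-5p, miR-451-5p and miR-144-3p were lower in every SIX2_EV library. With total counts the same held for 28.8% of all 319 tested sequences. The groups overlapped for miR-142-5p (4484 RPM in the third SIX2_EV and 4301 in the first control_EV library), miR-142-3p, miR-223-3p and miR-486-5p. Of the neuronal list miR-128-3p was also lower in every SIX2_EV library (at most 119 RPM against at least 194), and the groups overlapped for miR-7a-5p. The part of these lists in the results below was not tested.

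The predicted sequences were shorter than named miRNAs and mostly did not match their own genomic hairpin letter for letter. Their median length was 19 bases (range 18 to 26), against 22 for mature names and 20 for other sequences of named hairpins. Of the predicted sequences, 154 (92.2%) had 18 to 20 bases, the shortest lengths in the table, and 10 (5.99%) had 21 to 23 bases, the size range of most Dicer products. Of the mature names, 12.6% had 18 to 20 bases and 76.5% had 21 to 23. The single commonest length was 19 bases for predicted sequences (50.9%) and 22 bases for mature names (39.8%).

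Each deposited row gives the sequence and the genomic hairpin it was placed in. Of the 168 predicted loci, 152 (90.5%) differed from the hairpin at exactly 1 base and 16 matched it throughout. Among placed loci of mature names 92 of 498 (18.5%) had 1 mismatch, and among other sequences of named hairpins 42 of 77 (54.5%). The mismatch was not gathered at one end: it fell on the first base in 8 loci, within bases 2 to 8 in 50, in the middle in 70 and within the last 3 bases in 24, with a median position of base 10 counted from the 5′ end. All 12 kinds of change between a hairpin base and a read base occurred, from 18 for T-to-A to 5 for C-to-A, and A-to-G and G-to-A stood at 16 each. Whether the reads came from the loci named for them, from another mouse RNA or from another organism was not tested, so their levels are levels of a sequence, not of a shown mouse hairpin.

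**Figure D1:**
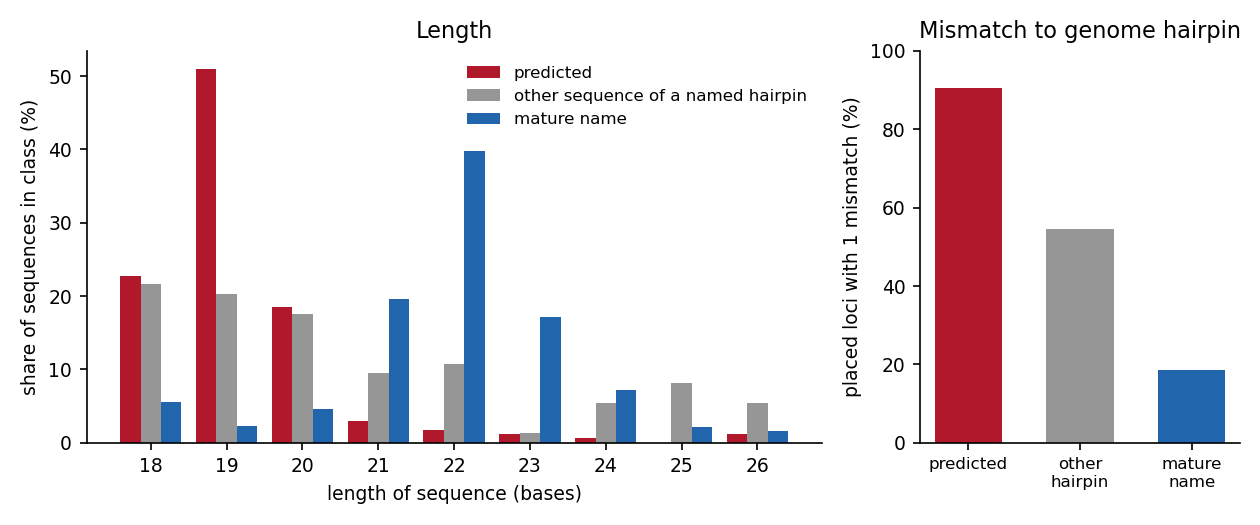
Left, share of the sequences in each class (y axis, percent) by length in bases (x axis) for 167 predicted sequences, 74 other sequences of named hairpins and 515 mature names. Right, share of placed loci with exactly 1 mismatch to the deposited hairpin (y axis, percent) in the same classes. The tallest bar, at 19 bases, belongs to the predicted sequences (50.9%), whose mismatch share was 90.5% against 18.5% for mature names.

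Hairpins of predicted sequences had less negative folding energies than those of named ones. The deposited energy had a median of -27.8 against -39.4 for mature names, and per hairpin base of -0.36 against -0.45. A median of 73.2% of the read's bases were paired in the deposited structure, against 79.2% for mature names and 66.7% for other sequences of named hairpins. The median GC content was 50.0% and ranged from 25% to 94.7%. T, the commonest first base of mature names (37.1%), opened 37 predicted sequences (22.2%), and G opened another 37 (22.2%, against 9.13%). The 16 sequences without a mismatch had a median energy per hairpin base of -0.37 and the 151 with 1 mismatch of -0.36. These are descriptions of classes that the authors' naming defines, with no test.

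Both arms were named about equally often, but not read equally. The 3p arm held 86 sequences and 74.5% of the reads of predicted sequences, and the 5p arm 81 sequences and 25.5%. Most of the 3p reads were those of PC-3p-1417_8222, which alone had 41.2% of all reads of predicted sequences. The loci lay on all chromosomes 1 to 19 and X, most often on 7 (15 loci), 4 (13), 5 and 13 (12 each), with 99 on the minus and 69 on the plus strand. On X lay 4 predicted loci (2.38%), against 9.37% of the other loci, and on chromosome 2 lay 4.17% against 12.1%. PC-5p-134409_12 was the only predicted sequence with more than 1 locus, on chromosomes 2 and 5, where 10.3% of mature names had several. No predicted hairpins overlapped each other on the same strand.

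Read counts were low for most predicted sequences. The median total over the 6 libraries was 38 reads, 121 of 167 had fewer than 100 and 8 had at least 1000. The 5 most abundant had 68.7% of the reads. The 16 sequences without a mismatch had 57.3% of the reads, with a median of 69 reads per sequence, against 35 for the 151 with 1 mismatch.

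The share of each library in predicted sequences did not separate the groups. It was 3.82% (95% Wilson bounds 3.73 to 3.91), 4.98% (4.90 to 5.07) and 5.38% (5.28 to 5.48) in SIX2_EV, against 5.74% (5.65 to 5.83), 3.71% (3.63 to 3.78) and 3.00% (2.94 to 3.05) in control_EV. These intervals allow for the counting error of independent reads alone. Without molecular identifiers several reads can stem from 1 molecule, so the intervals can be too narrow. The first control_EV library was the highest of all and the third the lowest, so SIX2_EV lay inside the range of control_EV. In bulk libraries such as these, fewer cells that hold an RNA and less of it per cell cannot be told apart. The means were 4.73% ± 0.810 and 4.15% ± 1.42 (SD, n = 3), giving p = 0.6 in a two-sided exact permutation test, where 0.1 is the smallest p that 3 against 3 libraries allow (0.6 after Benjamini-Hochberg adjustment over 2 comparisons of library values). The difference, 0.58 percentage points with all libraries, was -0.32 in replicates 1 and 2 alone.

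What made up the share differed between libraries of the same group. Sequences with 1 mismatch took 24.4%, 32.9% and 54.0% of the predicted reads in the SIX2_EV libraries, against 34.1%, 24.2% and 76.5% in the control_EV libraries. They were highest in the third library of each group. PC-3p-1417_8222 took 2.15%, 1.98% and 2.23% of all reads in SIX2_EV against 2.56%, 2.09% and 0.568% in control_EV, so 5 libraries lay close together and the third control_EV library apart.

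**Figure D2:**
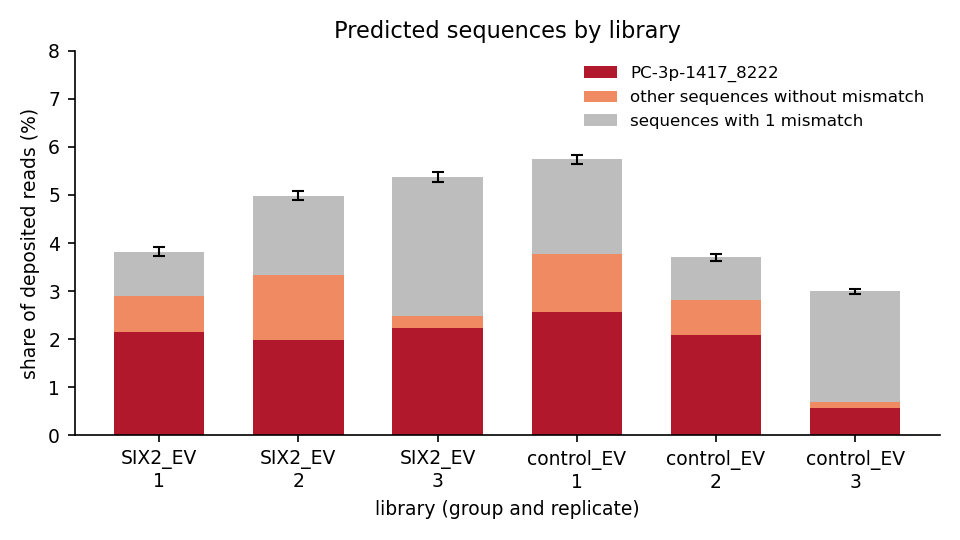
Share of deposited reads in predicted sequences (y axis, percent) in each of the 6 libraries (x axis, group and replicate), split into PC-3p-1417_8222, other sequences without mismatch and sequences with 1 mismatch. Error bars are 95% Wilson intervals of the whole share, which ran from 3.00% to 5.74%, both in control_EV.

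The number of predicted sequences listed did not separate the groups either. The table listed 34, 60 and 67 of the 167 in the SIX2_EV libraries, against 88, 57 and 123 in those of control_EV. On average 53.7 ± 17.4 and 89.3 ± 33.0 were listed (SD, n = 3; exact two-sided permutation p = 0.3, adjusted 0.6). The difference was -35.7 sequences with all libraries and -25.5 in replicates 1 and 2 alone. The deepest library, the third control_EV library, listed most, and the shallowest, the first SIX2_EV library, fewest. Between these the order did not follow depth. The third SIX2_EV library listed 67 with 184208 reads, and the second control_EV library 57 with 253037. As a share of everything listed, predicted sequences made up 12.3%, 21.7% and 16.0% in SIX2_EV and 20.05%, 12.6% and 18.1% in control_EV. A sequence appears in a library only from about 5 reads: of 429 values above 0, 38 equalled 5 and 5 were lower. A value of 0 is therefore given as listed at 0. A fold against a group listed at 0 throughout is a bound, computed as if each of its libraries had held 5 reads.

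Most predicted sequences were seen in few libraries. Of the 167, 64 (38.3%) were listed in a single library, against 25.8% of mature names, and 20 (11.98%) in all 6, against 29.1%. Of those listed in 1 library, 39 were in the third control_EV library and 0 in the first SIX2_EV library. The 39 are 23.4% of the predicted sequences, close to the 22.9% of named sequences listed in that library alone. Both groups listed 84 of the 167 (50.3%, against 63.8% of named sequences), control_EV alone 71 (42.5%, against 34.6%) and SIX2_EV alone 12 (7.19%, against 1.53%). Of these 12, 7 were listed in the second SIX2_EV library only and 2 in the third only. Their median was 8 reads, near the listing limit. The third library of each group, and no other, listed 16 (9.58%, against 3.40% of named sequences), while the first libraries shared 1 such sequence and the second libraries 0. In the third libraries mir-1285 stood at the levels given above, and its part in the shared listing was not tested.

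**Figure D3:**
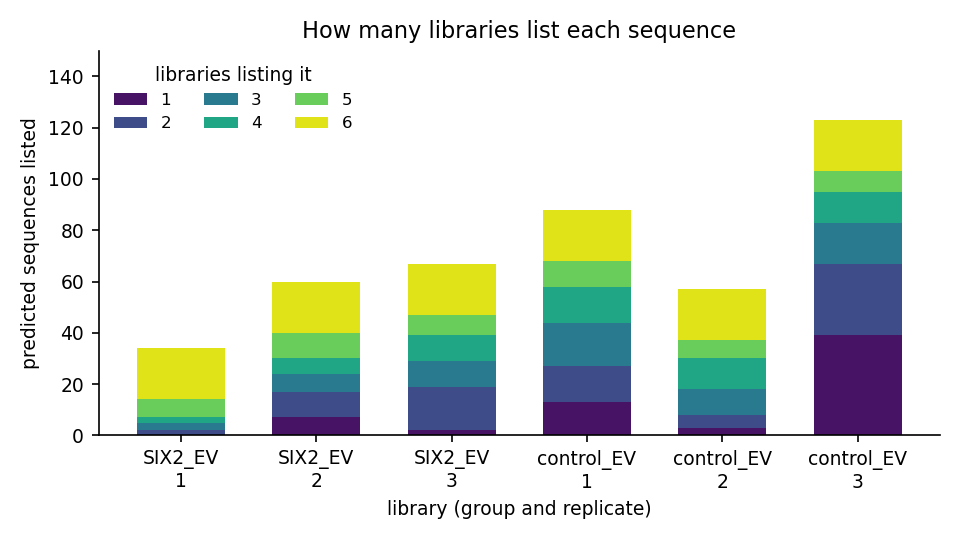
Number of predicted sequences listed above 0 (y axis) in each library (x axis), with colours for how many of the 6 libraries list the same sequence. The third control_EV library lists 123, of which 39 are listed nowhere else, and the 20 sequences found in all 6 libraries form the top block of each bar.

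A single predicted sequence, PC-5p-77833_32, was listed in all 3 SIX2_EV libraries and in no control_EV library. It had 43, 12 and 5 reads in SIX2_EV and was listed at 0 in every control_EV library. Against a floor of 5 reads per library it was at least 6.23-fold higher in SIX2_EV with total counts and at least 17.01-fold higher with TMM scaling. Without the first SIX2_EV library, which had most of its reads, these bounds were 2.31 and 8.11. The third library stands at the listing limit itself, and the filter on low counts left the sequence out of the test. It is 24 bases long, matches its hairpin on chromosome 12 without mismatch, and equalled no GENCODE M21 transcript stretch. None of the 589 named sequences showed this listing pattern (0), and the reverse pattern, listed in all 3 control_EV and no SIX2_EV library, held for 5 predicted (2.99%) and 16 named sequences (2.72%).

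The labels set one comparison, SIX2_EV against control_EV, for what vesicles of SIX2-overexpressing microglia change in the recipient cells' small RNA. No predicted sequence passed it. Of the 167, 42 (25.1%) passed the filter on low counts, against 48.2% of mature names, and the filter favours sequences that are high in one group. By edgeR's quasi-likelihood test 0 of 42 had an adjusted p under 0.05, as did 0 of all 319 tested sequences (0%). At an unadjusted p under 0.05 there were 4 higher in SIX2_EV (background 5.64% of all tested) and 2 lower (background 6.58%), 6 of 42 in either direction (background 12.2%). With total counts these were 0 higher (background 1.25%) and 3 lower (background 10%). DESeq2 called 2 of the 42, PC-3p-7123_1336 and PC-5p-69247_39, among 20 of all 319. PC-5p-69247_39 is listed at 0 throughout SIX2_EV and passed the filter through control_EV alone. In replicates 1 and 2 alone edgeR called 0 of 39 tested, with 13 at an unadjusted p under 0.05 (33.3%, where the share of all 301 tested was 31.9%).

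The sign of a typical predicted sequence depended on the scaling. TMM sets libraries by the bulk of shared sequences and total counts by all deposited reads. With TMM the median log2 fold change of the 42 was 1.05 and 30 were above 0 (35.4% of all tested), and with total counts it was -0.08 and 21 were above 0 (16.9% of all tested). The medians of all tested sequences were -0.30 and -1.52, of mature names -0.42 and -1.63, and of other sequences of named hairpins 1.23 and 0.09. The scaling thus moved all medians by over 1 log2 unit. The TMM factors ran from 0.31 in the second SIX2_EV library to 2.67 in the third control_EV library, and the log2 fold changes below are with TMM unless total counts are named.

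**Figure D4:**
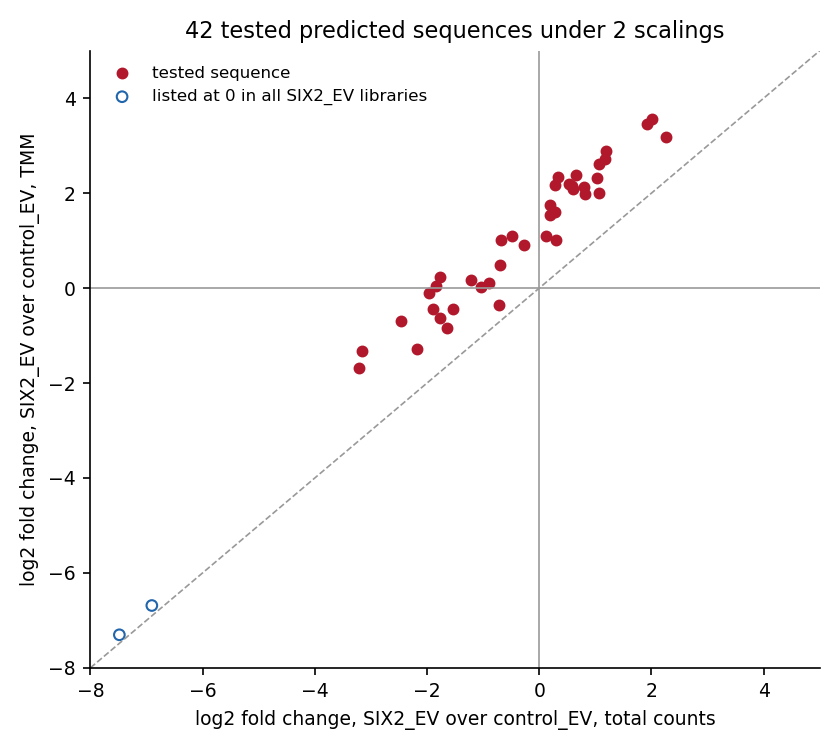
Log2 fold change of SIX2_EV over control_EV for the 42 tested predicted sequences with TMM (y axis) against total counts (x axis). The dashed line marks equal values, and all points lie above it. Filled points have reads in SIX2_EV, and the 2 open points, PC-5p-54673_58 and PC-5p-69247_39, are listed at 0 in all SIX2_EV libraries, so their fitted values depend on the prior count.

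The most abundant predicted sequence, PC-3p-1417_8222, had 3870, 4616 and 4107 reads in SIX2_EV against 6588, 5282 and 2392 in control_EV. In RPM these were 21545, 19842 and 22295 against 25572, 20874 and 5678, so the SIX2_EV libraries lay within the range of control_EV. Its log2 fold change was 1.61 (SE 0.94) with TMM, with an adjusted p of 0.578 by edgeR, and 0.29 with total counts. It was the leading predicted sequence in all 6 libraries. Neither the read nor its hairpin equalled a stretch of a GENCODE M21 transcript. Only RNA in that annotation was searched, and no complete ribosomal RNA sequence was, so whether these reads are pieces of ribosomal RNA was not tested.

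PC-3p-2250_5064, next in abundance, varied widely within each group. It had 1020, 2874 and 203 reads in SIX2_EV against 2424, 870 and 146 in control_EV, or 5679, 12354 and 1102 against 9409, 3438 and 347 RPM. The third library was the lowest in both groups, and the groups overlapped (log2 fold change 2.19, SE 1.67, adjusted p 0.638 by edgeR; 0.54 with total counts). Its 18 bases equal bases 740 to 757 of a transcript of Gm42418, which GENCODE annotates as a long non-coding RNA gene. On the opposite strand they equal stretches of AY036118 and of the ribosomal RNA entry CT010467.1. Whether these reads are pieces of ribosomal RNA was not tested.

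PC-5p-31484_147 equals another stretch of Gm42418, bases 1372 to 1389, and its whole hairpin lies in that transcript. Read and hairpin also equal, on the opposite strand, stretches of a CT010467.1 entry annotated as a pseudogene. Here too, origin from ribosomal RNA was not tested. PC-5p-31484_147 was chosen for the Gm42418 match, after values were seen. It had 44, 40 and 9 reads in SIX2_EV against 177, 99 and 5 in control_EV, again lowest in the third library of each group. Its log2 fold change was 0.17 on the TMM scale (adjusted p 0.987 by edgeR) and -1.22 with total counts.

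PC-5p-7527_1248 equals the first 26 bases of Snora64, a small nucleolar RNA of the H/ACA box kind, which guide pseudouridylation of other RNAs. The same stretch lies in a retained-intron transcript of Rps2, the gene of a small ribosomal subunit protein. It had 59, 80 and 130 reads in SIX2_EV against 456, 723 and 29 in control_EV, that is 328, 344 and 706 against 1770, 2857 and 68.8 RPM. The first and second control_EV libraries were above every SIX2_EV library and the third was below them all. The log2 fold change was -0.63 (SE 1.21) with TMM, with an adjusted p of 0.857 by edgeR, and -1.77 with total counts. It is 1 of 2 predicted sequences of 26 bases, the longest of the set.

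The other 26-base sequence, PC-5p-32562_139, was placed 986 bases away (start to start) on the opposite strand of chromosome 17, and was chosen for this after values were seen. It had 129, 109 and 7 reads in SIX2_EV against 66, 73 and 0 in control_EV. Here the order of the groups in replicates 1 and 2 was the reverse of that of its neighbour (log2 fold change 2.72, SE 1.94, adjusted p 0.608 by edgeR; 1.17 with total counts). No other pair of predicted loci lay within 20 kb of each other.

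Exact matches to annotated RNA were few, but such a search can miss the 151 sequences that differ by 1 base from their own hairpin. The low count therefore says little about the class. An exact match on the sense strand of 141767 GENCODE M21 transcripts was found for 4 of 167, and on the opposite strand for 4. All 4 sense matches were among the 16 sequences without a mismatch. The last of them was PC-5p-109608_17, in a retained intron of Eif5, a translation initiation factor gene. PC-5p-109608_17, named here for this match, had 18, 27 and 0 reads in SIX2_EV against 5, 0 and 0 in control_EV and was not tested. Whole hairpins matched the sense strand for 12 and the opposite strand for 9. Allowing 1 mismatch against annotated structural RNA, Gm42418 and Gm26917 gave 4 sense matches, among them PC-3p-146093_10 in Gm42418 as the only addition. Per the labels, reads of common RNA families, small nucleolar and ribosomal RNA included, had been removed beforehand.

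Among abundant sequences with 1 mismatch, PC-5p-3716_2889 and PC-3p-13599_559 had the same order of libraries within each group as PC-3p-2250_5064. PC-5p-3716_2889 had 361, 924 and 167 reads in SIX2_EV against 1668, 766 and 49 in control_EV (log2 fold change 1.09, SE 1.57, adjusted p 0.855 by edgeR; -0.48 with total counts). PC-3p-13599_559 had 341, 817 and 144 reads in SIX2_EV against 285, 96 and 21 in control_EV. In RPM these were 1898, 3512 and 782 against 1106, 379 and 49.8, so only the third SIX2_EV library lay below a control_EV library. Its log2 fold change was 3.56 (SE 1.58, adjusted p 0.453 by edgeR; 2.01 with total counts). It is 94.4% G and C, and its hairpin had a folding energy of -65.3. PC-3p-42241_90 had the same order of libraries, at 418, 632 and 195 RPM in SIX2_EV against 209.6, 107 and 14.2 in control_EV (log2 fold change 3.45, SE 1.42, adjusted p 0.404 by edgeR; 1.91 with total counts).

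A second set of abundant sequences with 1 mismatch was highest, within SIX2_EV, in the third library. PC-3p-7123_1336, with the smallest unadjusted p of any predicted sequence (0.0050), had 98, 145 and 1488 reads in SIX2_EV against 102, 119 and 451 in control_EV. In RPM these were 546, 623 and 8078 against 396, 470 and 1071, so the third control_EV library lay above 2 of the 3 SIX2_EV libraries, while with TMM the groups did not overlap. Its log2 fold change was 3.18 (SE 0.75) with TMM and 2.25 with total counts. The adjusted p was 0.361 by edgeR and 0.0025 by DESeq2. Over the alternatives with edgeR or limma the adjusted p ran from 0.0871, in replicates 1 and 2 alone, to 0.947, without the second control_EV library. The log2 fold change was 2.17 without the third SIX2_EV library, where its reads were highest.

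PC-3p-5606_1799 had 191, 260 and 856 reads in SIX2_EV against 404, 222 and 336 in control_EV (log2 fold change 2.01, SE 0.65, adjusted p 0.368 by edgeR; 1.07 with total counts). The hairpin lies antisense to Chmp2b, the gene of an ESCRT-III subunit that acts in endosome sorting. PC-5p-4477_2350 had 94, 248 and 1130 reads in SIX2_EV against 272, 155 and 2127 in control_EV, so the third libraries stood above all others in both groups (log2 fold change 1.53, SE 0.79, adjusted p 0.519 by edgeR; 0.20 with total counts). PC-5p-10286_828 had 74, 49 and 206 reads against 178, 98 and 223 (1.09 with TMM, adjusted p 0.519 by edgeR; 0.11 with total counts).

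For sequences higher in every SIX2_EV library with TMM, the groups mostly overlapped with total counts. For those lower in every SIX2_EV library with TMM, the groups stayed apart. Among the 42 tested, 6 were higher in every SIX2_EV library with TMM (background 5.96% of all tested) and 2 lower (16.9%), while with total counts 0 were higher (2.82%) and 3 lower (28.8%). The 6 were PC-3p-5606_1799, PC-3p-7123_1336, PC-5p-10286_828, PC-5p-24137_228, PC-3p-24809_218 and PC-5p-27653_183. PC-5p-24137_228 had 66, 164 and 98 reads in SIX2_EV against 104, 33 and 202 in control_EV (log2 fold change 2.39, SE 0.85, adjusted p 0.368 by edgeR; 0.66 with total counts). PC-3p-24809_218 had 62, 97 and 140 against 127, 52 and 69 reads (1.98, SE 0.82, adjusted p 0.407 by edgeR; 0.82 with total counts). PC-5p-27653_183 had 10, 31 and 57 against 10, 0 and 75 reads (2.89, SE 1.50, adjusted p 0.519 by edgeR; 1.19 with total counts). Among untested sequences PC-3p-49129_70 did not overlap with TMM either, from 4, 12 and 3.5 reads against 4, 6 and 5.5, of which only the 12 are well above the listing limit.

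Of all 167, 5 were lower in every SIX2_EV library with TMM, and these were listed at 0 throughout SIX2_EV. They are 2.99% of the predicted sequences, against 9.79% of all 756 sequences in the table. The 4 with a mean of at least 10 CPM are described here. PC-5p-69247_39 had 23, 13 and 51 reads in the control_EV libraries. Against the floor of 5 reads it was at least 1.16-fold lower in SIX2_EV with TMM and at least 3.42-fold lower with total counts, and the adjusted p was 0.361 by edgeR and 0.0351 by DESeq2 (0.0629 to 0.947 over the alternatives with edgeR or limma). With zeros set to 4 reads the log2 fold change was -0.54. PC-5p-54673_58 had 13, 11 and 34 reads in control_EV, a mean of 34.9 CPM with TMM, which lies under the 46.4 CPM that 5 reads were worth in SIX2_EV, and it was at least 2.28-fold lower with total counts (adjusted p 0.361 by edgeR). PC-3p-50018_68 had 16, 5 and 93 reads and PC-3p-123580_14 29, 6 and 11, and neither was tested. With total counts they were at least 3.96-fold and 2.12-fold lower. With TMM PC-3p-50018_68 was at least 1.1-fold lower, and PC-3p-123580_14 had no bound, since its mean of 43.3 CPM lies under the floor. PC-3p-14360_515, named after its values were seen, was the third tested sequence lower in every SIX2_EV library with total counts: 13, 16 and 16 reads against 101, 52 and 605, with a log2 fold change of -3.15, but of -1.32 with TMM (adjusted p 0.574 by edgeR).

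**Figure D5:**
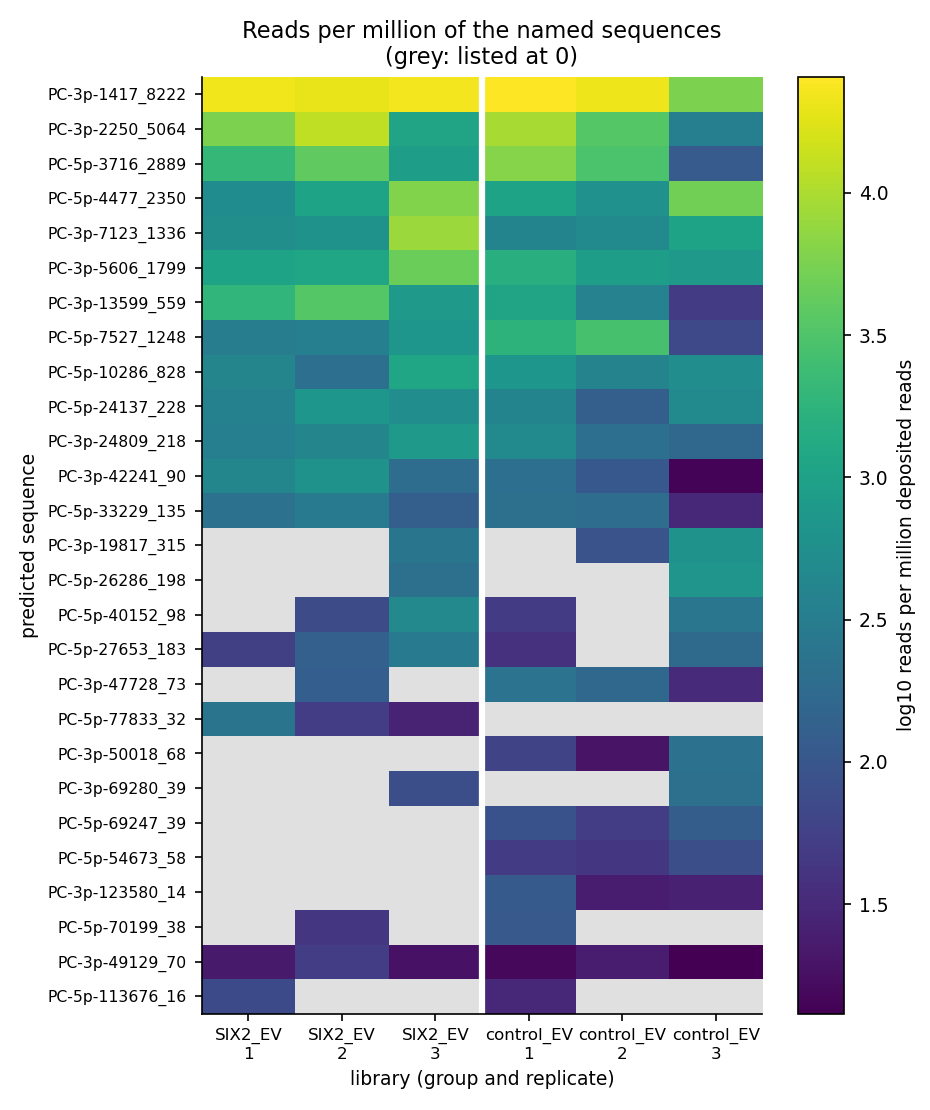
Level in RPM, on a log10 colour scale, for the 27 predicted sequences that the rule names (rows, by mean level) in each library (columns, SIX2_EV left and control_EV right of the white line). Grey cells are listed at 0. PC-3p-1417_8222 is the highest row in every library, though lower in the third of control_EV (5678 RPM) than elsewhere. PC-5p-77833_32 is listed on the left side only.

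Seeds were compared with those of known miRNAs. Bases 2 to 8 of 25 predicted sequences equal the seed of a mature miRNA, 24 of them in RefSeq's 1738 mouse mature sequences (GRCm38.p6) and 8 in the same table. The 24 are 14.4% of the predicted sequences, where 8.53% of the 16384 possible strings of 7 bases are seeds in that set. That second share takes all strings as equally likely and is not matched for base composition, so no excess can be read from it. The predicted sequences hold 166 distinct seeds, with 1 seed shared by 2 of them. A shared seed is a match of letters and says nothing of targets.

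The most abundant of these by mean level were few in reads. PC-5p-33229_135 has the seed of miR-671-5p and had 40, 72 and 24 reads in SIX2_EV against 55, 50 and 13 in control_EV (log2 fold change 2.15, adjusted p 0.574 by edgeR; 0.59 with total counts). PC-5p-26286_198 has the seed of miR-139-3p, with 39 reads in the third SIX2_EV and 290 in the third control_EV library and none listed elsewhere. PC-3p-69280_39, with the seed of miR-3080-3p, was likewise listed in these 2 libraries alone, with 15 and 90 reads. PC-3p-19817_315, with the seed of miR-3083-5p, had 46 reads in the third SIX2_EV library and 0, 23 and 265 in control_EV (-0.43 with TMM, -1.53 with total counts, adjusted p 0.943 by edgeR with TMM). PC-5p-40152_98, with the seed of miR-5133, had 0, 17 and 84 against 12.5, 0 and 108.5 reads, highest in the third library of both groups (log2 fold change 2.13, adjusted p 0.734 by edgeR; 0.79 with total counts). PC-5p-70199_38 and PC-5p-113676_16, with the seeds of miR-203-3p and miR-877-5p, had 38 and 21 reads in all.

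PC-5p-153346_9, named after its match was seen, has the seed of miR-3470b, the miRNA of the series title, and had 14 reads, all in the third control_EV library. PC-3p-47728_73 has the seed of miR-1247-3p and of the cattle-named miR-11980, with which it also shares a stretch of at least 13 bases. It had 0, 29 and 0 reads in SIX2_EV against 61, 41 and 14 in control_EV (log2 fold change 0.23, adjusted p 0.987 by edgeR; -1.76 with total counts). Its locus, chr7:79155274-79155372, lies 262 bases from that of miR-9a-5p, a neuronal miRNA, on the same strand, counted from start to start.

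Stretches of 13 or more bases tied 27 predicted sequences into 13 groups, 10 of them of predicted sequences alone. In 3 groups a named sequence took part. PC-3p-36109_117, named after the match was seen, shares a stretch with miR-1195 and had 0, 0 and 59 reads in SIX2_EV against 6, 20 and 206 in control_EV, highest in the third library of both groups (log2 fold change 0.11, adjusted p 0.994 by edgeR; -0.89 with total counts). PC-5p-56812_55, likewise named after its match was seen, shares one with mir-1961 and had 0, 0 and 41 against 6, 15 and 41 reads (log2 fold change 1.02, adjusted p 0.857 by edgeR; 0.30 with total counts). PC-3p-7123_1336 shares one with PC-3p-35767_119 and PC-5p-229727_5, which were placed on chromosomes 17 and 6 while PC-3p-7123_1336 was placed on 7. PC-3p-35767_119 had 17 reads in the third SIX2_EV library, 0 in the first and second, and 10, 8 and 118 in control_EV, so the 2 related sequences did not keep 1 ratio across libraries.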

How the data were processed

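Per the labels' protocols, Trizol RNA went into TruSeq small RNA libraries that were read on a HiSeq 2500, and the authors filtered reads with ACGT101-miR. The sources used here name no genome build, miRBase release or mapping setting. Per the file headers, the deposited table holds estimated counts (raw), split over loci and not always whole, and the authors' normalized signal. It also holds hairpin GC content as a deposited percent and the folding energy, whose unit is not given. The 823 rows were summed by name and sequence to 756 features and rounded to whole reads.

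All features entered the quasi-likelihood test of edgeR 4.0.16 (R 4.3.3) after TMM scaling and filterByExpr, without a block, and p-values were adjusted by Benjamini-Hochberg at 0.05. CPM values are per TMM effective library. The procedure was tested on simulated counts. Library values were compared with exact permutation tests (scipy 1.17.1). Alternatives used total counts, upper quartile scaling, DESeq2 1.42.0, limma 3.58.1 on log2 of the signal plus 1, limma-voom, other filters, the replicate block, sums by sequence alone, zeros set to 4, and fewer libraries.

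Mismatches were counted by aligning each read with the hairpin of its row. Reads and hairpins were searched in GENCODE M21 transcripts, and seeds in RefSeq's mature miRNAs (GRCm38.p6). Deposited positions were not converted to that build.

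The members, lists and rules were chosen with earlier results of these data known. The rule named the 10 highest mean CPM, the 10 smallest unadjusted p, sequences without group overlap and a mean of at least 10 CPM (up to 12), sequences with at least 3 loci or overlapping hairpins (0 of each), and the 8 most abundant with a known seed.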

Additional observations from a re-analysis of the deposited data

How the results depend on the processing

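The count of predicted sequences past the threshold was 0 under every alternative but DESeq2, with 2 of 42 (20 of all tested). They were PC-3p-7123_1336 at a log2 fold change of 3.29 (adjusted p 0.0025 by DESeq2) and PC-5p-69247_39 at -4.97 (0.0351). PC-5p-69247_39 is listed at 0 throughout SIX2_EV and passed the filter through control_EV alone, so -4.97 is not a measured fold. Against the floor of 5 reads it was at least 1.16-fold lower with TMM. With the replicate block 0 were called, with 10 of 42 at an unadjusted p under 0.05, all higher (45 of all 319). Deviations of same-numbered libraries correlated at 0.21, 0.07 and 0.67, so the numbers were not taken to pair the libraries, and not every library correlated best with its own number. At an unadjusted p under 0.05 there were 6 of 42 predicted sequences with TMM (12.2% of all tested), 3 with total counts (11.3%), 11 by DESeq2 (16.9%), 12 by limma-voom (19.4%), 10 with the authors' signal (18.2%), 14 of 167 without a filter (6.88%), 10 of 65 with the filter of 10 CPM (13.3%), and 13 of 39 in replicates 1 and 2 alone (31.9%).

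Some single values changed sign. With total counts PC-5p-3716_2889 went to -0.48 and PC-3p-47728_73 to -1.76. PC-3p-47728_73 was also -0.078 with upper quartile scaling, -1.91 with the authors' signal, -0.76 by limma-voom and -2.44 with the replicate block. PC-5p-7527_1248 turned to 0.71 with the authors' signal, 1.11 by limma-voom and 0.30 with the replicate block. With zeros set to 4 reads PC-5p-54673_58 was 0.073 and PC-3p-19817_315 was 0.033. Leaving out 1 library at a time gave -0.24 to 2.56 for PC-5p-3716_2889 (negative without the second SIX2_EV library), -8.60 to 1.23 for PC-3p-47728_73 and -8.28 to 1.46 for PC-3p-19817_315. PC-3p-47728_73 and PC-3p-19817_315 are each listed in a single SIX2_EV library. Without that library SIX2_EV is at 0 throughout, so -8.60 and -8.28 are not measured folds. The difference in read share, 0.58 percentage points, was -0.32 in replicates 1 and 2 alone and 0.0048 to 1.38 with 1 library left out. With the 10 most abundant features taken out of the denominator, the shares averaged 21.6% in SIX2_EV and 9.64% in control_EV, a difference of 11.99 percentage points (exact permutation p = 0.2). The difference in listed sequences was -51.8 to -18.8 with 1 library left out, against -35.7 with all. Apart from the fits that left SIX2_EV at 0 throughout, the cause of these shifts was not tested. Counts were low: 121 of 167 sequences had fewer than 100 reads in all, and values near 5 reads sit at the listing limit.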
